A study of Mus musculus with 3 samples.

Results

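The comparison set 22-month-old p16-/- cells against 2-month-old wild-type (WT) cells, to describe how far old cells without p16 resembled young cells partway through reprogramming. It used 2 of the 3 arrays of the series, chosen by their labelled age and genotype and not by any measured value. All cells were mouse tail-tip fibroblasts, the mesenchymal cells that grow out of a piece of tail, and total RNA was taken on day 8 after the 4 factors Oct4, Sox2, Klf4 and c-Myc had been introduced. The young WT array came from donors aged 2 months, and the old p16-/- array from p16 knockout mice aged 22 months. The third array, of old WT donors aged 22 months, differed from the young WT array in age alone by its labels, and it is given beside the other values to show where it lay. Age and genotype differ together between the compared arrays, so their parts cannot be told apart within this comparison. The strain, the sex and the number of donors behind each array are not stated in the labels. The design text speaks of 2 independent experiments on separate donors, of which 1 array a group is described. With 1 array a group there is no spread between replicates, no test was run, and every difference is described by its size only.

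Forced expression of the 4 factors turns a small share of fibroblasts into pluripotent stem cells over a few weeks. In the first days the cells divide fast, lose mesenchymal genes and gain epithelial ones, and most never complete the process. p16 is the Ink4a product of Cdkn2a; it inhibits the kinases Cdk4 and Cdk6, keeps Rb active and so holds cells before S phase. The same locus encodes Arf, which stabilises p53, and the neighbouring Cdkn2b encodes the related inhibitor p15. Their products accumulate in many tissues with age and act as a barrier to reprogramming.

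Each array held 43020 probe spots, of which 24682 (57.4%, young WT), 26504 (61.6%, old WT) and 25110 (58.4%, old p16-/-) were well above background. No spot was saturated, and the 3 arrays lay on 1 slide and were read in 1 scan. A level is the log2 of the processed signal minus the array's 75th percentile, which was a signal of 2338, 2255 and 2243. A ratio is the difference of 2 levels, so a log2 ratio of 1 is 2-fold and positive ratios mean a higher level on old p16-/-. Probes spotted 10 times on an array, 399 in all, had a median SD of 0.05 on the log2 scale among those with a signal of 1000 or more, and none of their spots lay 2-fold from the probe's median (0 of 1750, 0 of 1700 and 0 of 1720). That spread covers spotting and reading alone, not cultures or donors. Genes were counted where the probe stood clear of background on 1 or both of the compared arrays and had a signal of 1000 or more on the brighter one.

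Several genes set the arrays apart in ways the labels do not name. Eif2s3y and Ddx3y, which lie on the Y chromosome, had signals of 6819, 11.52 and 14.4 (Eif2s3y) and 3949, 8.99 and 12.05 (Ddx3y). Wherever 3 signals stand without names they follow the order young WT, old WT, old p16-/-. Neither was above background on the old arrays. Xist, the RNA that coats the inactive X chromosome, had signals of 13.8, 1548 and 1387 and was not above background on young WT. The young WT array thus differed from both old arrays in these sex-linked genes as well as in age. Donor sex, as these genes mark it, cannot be told apart from age and genotype in this comparison. Markers of macrophages, given below, also ran from high on young WT to low on old p16-/-.

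Fibroblast markers, the labelled cell type's own, were mostly bright on both arrays, 25 of 27 counted genes with a signal of 1000 or more on each. Col1a1 and Col1a2, the chains of type I collagen, had signals of 171773, 159574 and 130176 (Col1a1) and 269481, 287389 and 278025 (Col1a2). Vim, an intermediate filament of mesenchymal cells, had 215385, 204077 and 201004, and Dcn, a matrix proteoglycan, had 26079, 25431 and 38409. Other markers differed between the arrays, 4 by at least 2-fold upward and 4 downward on old p16-/-, Thy1 and Pdpn the furthest, as described below. Markers of lymphocytes, endothelial cells and skeletal muscle were mostly dim, with 3 of 13, 2 of 11 and 1 of 14 genes bright enough to count, against 15 of 27 for macrophages and 27 of 30 for fibroblasts.

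Most genes lay at similar levels on the old p16-/- and young WT arrays. Of 8871 counted genes, 65.4% lay within 1.2-fold, 84.8% within 1.5-fold and 92.4% within 2-fold, and the median size of the log2 ratio was 0.16, which is 1.12-fold. By at least 2-fold, 303 genes were higher on old p16-/- (3.42%) and 373 lower (4.2%), together 676 (7.62%). At least 4-fold apart were 95 higher and 114 lower genes (2.36%). Of all counted genes, 34 ratios are bounds because only 1 array was above background, 16 of them higher and 18 lower. Housekeeping genes lay close together, all 16 counted ones within 1.5-fold. Gapdh had signals of 349286, 344116 and 342503 and Actb had 560897, 561087 and 517666, with log2 ratios of 0.03 and -0.06 for old p16-/- over young WT.

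The other pairs of arrays give a scale for these numbers, although all 3 pairs share arrays and are not independent. Old WT over young WT counted 8717 genes, 103 of them 2-fold higher (1.18%) and 49 2-fold lower (0.562%), in all 1.74%, and 95.6% lay within 1.5-fold. Old p16-/- over old WT counted 8835 genes, 234 higher (2.65%) and 374 lower (4.23%), in all 6.88%, and 84.3% lay within 1.5-fold. The median size of the log2 ratio was 0.16 here, against 0.10 between the WT arrays and 0.19 between the old arrays. By these measures the old p16-/- array lay about as far from young WT as from old WT, and the WT arrays lay nearest each other.

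**Figure D1:**
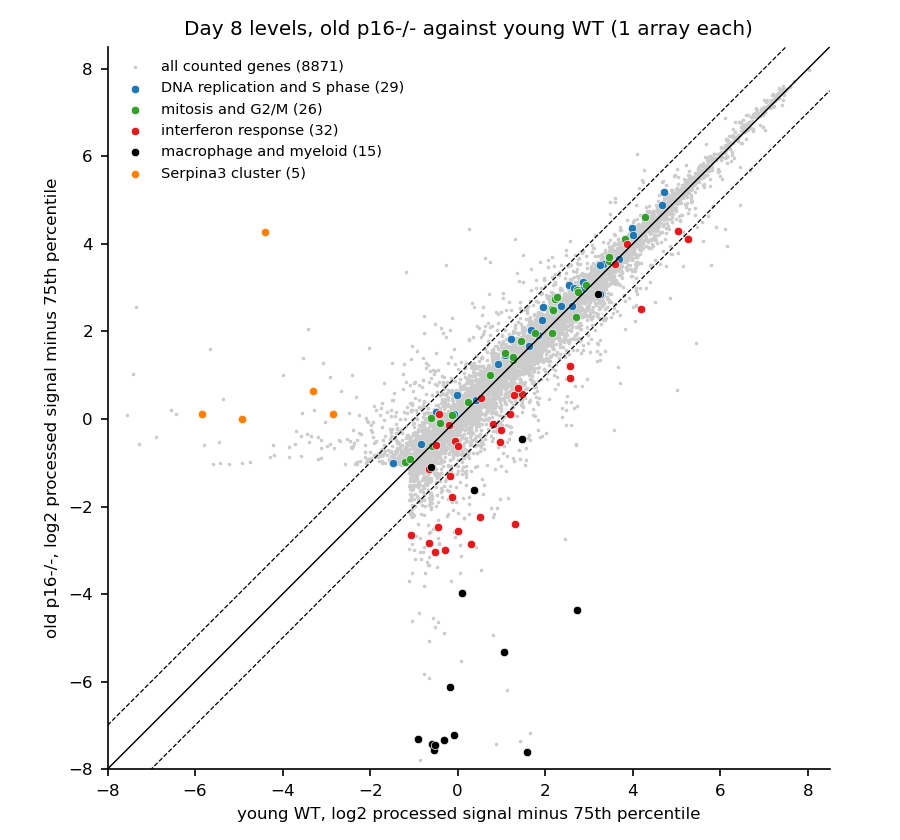
Levels of the 8871 counted genes on the young WT array (x axis) and the old p16-/- array (y axis), as log2 processed signal minus each array's 75th percentile, with 1 array each. The solid line marks equal levels and the dashed lines 2-fold, coloured points are members of 5 gene lists, and DNA replication and mitosis genes follow the solid line while interferon response and macrophage genes lie below it and Serpina3 genes above it.

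Cdkn2a was bright on every array, with a processed signal of 62705 in young WT, 65464 in old WT and 28065 in old p16-/-. The old p16-/- signal was the lowest, at a log2 ratio of -1.11 to young WT, and a second, dimmer probe gave -1.27. Where the 2 probes lie relative to the deleted part is not given, and Ink4a and Arf transcripts share exons, so this reading does not check the genotype. Cdkn2b, which encodes p15, had signals of 15158 in young WT, 17528 in old WT and 7306 in old p16-/-, a ratio of -0.999 that lay just outside 2-fold, and -1.24 by a second probe. Both inhibitors were thus about 2-fold lower on old p16-/- than on either WT array. The other counted inhibitors of cyclin-dependent kinases lay within 2-fold: Cdkn1a (p21) at 0.10, Cdkn1b (p27) at -0.28, Cdkn2d (p19) at 0.19 and Cdkn2c (p18) at 0.66 on the log2 scale.

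Of the 10 counted genes nearest to Cdkn2a on each side of it on chromosome 4, most lay close to young WT. Mtap, the adjacent gene of methionine salvage, had a log2 ratio of 0.85 (signals of 3157, 3347 and 5490.3). Elavl2, an RNA-binding protein of neurons, had 2.74 (signals of 180.3, 26.0 and 1159.8), and Adamtsl1, a secreted matrix protein, had -2.24 (signals of 1242, 1528 and 253). Jun, farther out, had -0.85, and Rps6, Focad, Haus6 and Fggy lay within 0.10 of 0. Elavl2 and Adamtsl1 were the only 2-fold neighbours, and Cdkn2b lay at the limit. These neighbours were picked out after their values were seen.

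Of the 4 factors, Myc had a signal of 2456 in young WT, 2387 in old WT and 1172 in old p16-/-, a ratio of -1.01, so the old p16-/- array was the lowest. Klf4 had 1434 in young WT, 1708 in old WT and 1340.5 in old p16-/-, with a ratio of -0.04, and the arrays did not part by 1.5-fold. Pou5f1, which encodes Oct4, was not above background on any array, and Sox2 was above it on old p16-/- alone, at a signal of 72.8. The files do not say whether these probes read the introduced copies.

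Genes of DNA replication and S phase lay about as close to young WT as genes in general, mostly slightly above it. Of 29 counted genes, none was 2-fold apart, beside 7.62% of all counted genes, and 26 lay within 1.5-fold (89.7%, beside 84.8%). A ratio above 0 was found for 26 (89.7%, beside 55.1%), with a median log2 ratio of 0.28 beside 0.03 over all counted genes. Rrm2, a subunit of ribonucleotide reductase, had a signal of 56886 in young WT, 45520.3 in old WT and 75739 in old p16-/-. Mcm6, part of the replicative helicase, had 54697 in young WT, 42209 in old WT and 60956 in old p16-/-. Pcna, the sliding clamp of DNA polymerase, had 34121 in young WT, 27533 in old WT and 42745 in old p16-/-. In all 3 genes old WT was the lowest and old p16-/- the highest, and the ratios of old p16-/- over young WT were 0.47, 0.21 and 0.38. The lowest ratio was that of Mcm3, another helicase subunit, at -0.41. The highest ratio was that of E2f2, a transcription factor released from Rb, at 0.67 (signals of 1521, 1389 and 2331).

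Mitotic genes lay the same way. Of 26 counted genes, none was 2-fold apart, 25 lay within 1.5-fold (96.2%), and 23 had a ratio above 0 (88.5%), with a median of 0.23. Birc5 (survivin) had a signal of 41931 in young WT, 31512 in old WT and 50754 in old p16-/-, Cdc20, an activator of the anaphase-promoting complex, had 30397 in young WT, 22410.0 in old WT and 35643 in old p16-/-, and Mki67, the gene of the Ki-67 antigen, had 23594 in young WT, 16087 in old WT and 25203 in old p16-/-. Old WT was the lowest of the 3 arrays for each of them. The same members had medians of -0.37 between old and young WT and 0.60 between old p16-/- and old WT, and the replication genes had -0.30 and 0.58, comparisons that share arrays with each other. The median of both lists stayed above 0 under every setting tried, from 0.25 to 0.28 for replication and from 0.21 to 0.24 for mitosis.

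Targets of p53 also lay about as close to young WT as all counted genes. Of 25 counted genes, 1 was 2-fold higher and none 2-fold lower (4.0%, beside 7.62%), and 23 lay within 1.5-fold (92.0%, beside 84.8%), with a median of 0.17. Mdm2, the ligase that degrades p53, had signals of 77995, 79230.3 and 80372 and a ratio of 0.10, and Aen, a p53-induced nuclease, had a ratio of 0.25. The 1 gene past 2-fold was Perp, a membrane protein of desmosomes and of p53-driven cell death, with a signal of 41489 in young WT, 40631 in old WT and 106515 in old p16-/-, a ratio of 1.41. Its WT signals were alike, and the old p16-/- one stood above both.

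Genes that respond to interferon were the list with the most 2-fold-lower genes on old p16-/-. Of 45 on the array, 32 were counted, 18 were at least 2-fold lower and none 2-fold higher, and 29 of 32 had a ratio below 0. Their median was -1.14 on the log2 scale. The 18 are 56.25% of the list, beside 4.2% of all counted genes. Of the 32, 12 reached the signal threshold on young WT alone, which all but fixes that they were lower. Of the 20 that reached it on both arrays, 7 were 2-fold lower and 17 had a ratio below 0. Among all 8199 counted genes that reached it on both arrays, 196 were 2-fold lower and 3602 had a ratio below 0. Interferons signal through their receptors and the Jak kinases to Stat2 and Irf9, which bind a short DNA element in the promoters of antiviral genes. The core of that element, GAAA, any 2 bases and GAAA on either strand, stood in the RefSeq promoter window (250 bases before to 50 after the start, assembly GRCm38.p6) of 8 of 12 windows of the 2-fold-lower genes (66.7%). It stood in 12 of 25 windows of all counted list members (48.0%), in 2.86% of the windows of all counted genes and in 3.44% of 32851 windows in all. Windows were found for 24 of the 32 counted members. The 250 bases before the start of 4 of the 2-fold-lower genes, which show overlapping and spaced matches, are printed here 5′ to 3′ on the gene's strand, with matches in capitals.
Isg15: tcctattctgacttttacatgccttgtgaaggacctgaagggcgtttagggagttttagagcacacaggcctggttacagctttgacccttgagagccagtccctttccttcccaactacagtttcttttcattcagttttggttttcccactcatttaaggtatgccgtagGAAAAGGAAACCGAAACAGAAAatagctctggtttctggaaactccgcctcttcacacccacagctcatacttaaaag
Ifit1: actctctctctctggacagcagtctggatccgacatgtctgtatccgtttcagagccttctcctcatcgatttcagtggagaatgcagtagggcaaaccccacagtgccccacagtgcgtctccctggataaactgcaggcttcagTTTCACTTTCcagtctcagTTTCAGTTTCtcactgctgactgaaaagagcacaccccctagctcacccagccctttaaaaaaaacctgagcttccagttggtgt
Ifit3: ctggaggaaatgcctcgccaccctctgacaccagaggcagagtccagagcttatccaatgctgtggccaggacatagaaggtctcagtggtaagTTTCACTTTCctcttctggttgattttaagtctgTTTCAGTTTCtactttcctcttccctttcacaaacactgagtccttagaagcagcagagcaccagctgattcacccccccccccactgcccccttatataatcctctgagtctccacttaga
Bst2: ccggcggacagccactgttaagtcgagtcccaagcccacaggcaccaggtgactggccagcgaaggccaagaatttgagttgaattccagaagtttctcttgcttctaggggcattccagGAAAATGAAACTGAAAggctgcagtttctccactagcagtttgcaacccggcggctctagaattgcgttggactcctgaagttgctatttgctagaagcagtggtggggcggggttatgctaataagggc
These windows are, in this order, chr4:156200819-156201068 (minus strand), chr19:34640639-34640888 (plus strand), chr19:34583279-34583528 (plus strand) and chr8:71537473-71537722 (minus strand). A match is a description of the letters and not evidence of binding in these cells.

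Isg15, whose product is a ubiquitin-like modifier, carries 3 overlapping matches in the sequence above. It had a processed signal of 12802 in young WT, 59455 in old WT and 4766 in old p16-/-. Ifit1, which binds foreign RNA caps, had 1372 in young WT, 3689 in old WT and 288 in old p16-/-, Ifit3, its partner, had 2156 in young WT, 5859.9 in old WT and 349 in old p16-/-, and Bst2 (tetherin), which holds virions at the cell surface, had 12812 in young WT, 33932 in old WT and 3957 in old p16-/-. In all 4, old WT was the highest and old p16-/- the lowest. The log2 ratios of old p16-/- over young WT were -1.37, -2.20, -2.57 and -1.64, and those of old WT over young WT were 2.28, 1.49, 1.504 and 1.47. A second Isg15 probe gave -1.64.

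The furthest member was Ifi27l2a, an interferon-induced mitochondrial protein, with a signal of 5377 in young WT, 10047 in old WT and 391 in old p16-/-, a ratio of -3.73. Cxcl10, a chemokine for T cells, had 2661 in young WT, 1893 in old WT and 285 in old p16-/-, a ratio of -3.17, and here young WT was the highest. Usp18, which removes Isg15 from its targets, had 3064 in young WT, 9643 in old WT and 439.6 in old p16-/-, a ratio of -2.75. The 2′-5′ oligoadenylate synthetase genes Oasl1, Oasl2, Oas2 and Oas1a, whose products sense double-stranded RNA, had ratios of -2.71, -2.53, -1.64 and -1.23. Some members lay near young WT or above it, among them Ifitm2, Trim25 and Eif2ak2 with ratios of 0.12, -0.05 and 0.54.

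Upstream of these genes, Stat2 had a signal of 4951 in young WT, 8522 in old WT and 2254 in old p16-/-, a ratio of -1.08, and Irf9 had 5282 in young WT, 8907 in old WT and 3033 in old p16-/-, a ratio of -0.75. Both transducers were thus highest on old WT and lowest on old p16-/-; they are themselves induced by interferon and are counted among the 32 response genes above. Of 19 other counted genes of interferon sensing and signalling, receptors and kinases among them, none was 2-fold apart, beside 7.62% of all counted genes, and 16 lay within 1.5-fold, with a median of -0.07. The kinase Jak1 had a ratio of -0.26, the receptor chain Ifnar2 had a ratio of 0.17, the transcription factor Irf3 had a ratio of 0.04 and the adaptor Sting1 had a ratio of -0.76, the lowest of the list, with the receptor Tlr2 the highest at 0.82. The RNA sensors Ifih1 and Ddx58 are not among these 19, and Ifih1 is counted among the response genes. Ifih1 had a signal of 1569 in young WT, 3196 in old WT and 372 in old p16-/-, a ratio of -2.02. Ddx58 had a ratio of -0.89, and a second, dimmer probe gave -2.03. Antigen presentation genes lay within 2-fold in all 12 counted members, beside 92.4% of all counted genes. Their median was 0.11, with H2-D1, a class I heavy chain, at 0.92. Of the 6 counted guanylate-binding proteins and immunity-related GTPases, which attack vacuoles of pathogens, 3 were 2-fold lower, beside 4.2% of all counted genes. Their median was -1.01. The signal threshold was reached on young WT alone by 3 of the 6, which all but fixes that they were lower. On old p16-/- alone it was reached by 1 member, which all but fixes that it was higher. Of the 2 that reached it on both arrays, 1 was 2-fold lower. Irgm2 had a signal of 2109 in young WT, 5315 in old WT and 559 in old p16-/- and Gbp2 had 1684 in young WT, 4302 in old WT and 1645 in old p16-/-, so Irgm2 was lowest on old p16-/- while Gbp2 lay at the young level.

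The Ifi200 family, whose members bind nucleic acids in the nucleus and cytosol, was split. Ifi202b had a signal of 13.2 in young WT, 8.38 in old WT and 12176 in old p16-/- and was above background on old p16-/- alone, at least 228-fold higher than on young WT. Ifi211 had 4676 in young WT, 7644 in old WT and 28.4 in old p16-/- and was above background on the WT arrays alone, at least 95.9-fold lower on old p16-/-. Ifi214 was at least 41.4-fold higher, Ifi209 had a ratio of 2.12, Ifi207 had a ratio of -1.43, and Ifi204 and Ifi208 lay at 0.05 and -0.13. Copies of this family are nearly alike in sequence, so the value of a single probe is uncertain, and inherited differences between mice were not tested.

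Macrophage and myeloid genes were dimmer on old p16-/- than on young WT. Of 27 on the array, 25 were above background on young WT and 24 on old WT, against 11 on old p16-/-. Their summed signal was 73612, 33252 and 19815, or 34.2, 16.1 and 9.57 times the 75th percentile. Of 15 counted genes, 13 were at least 2-fold lower (86.7%, beside 4.2% of all counted genes) and the other 2 had ratios below 0. Of these ratios 9 are bounds, and the median was -4.92, or -1.95 over members above background on both arrays. The signal threshold was reached on young WT alone by 13 of the 15, which all but fixes that they were lower, so these counts follow in large part from the filter. Lyz1, a lysozyme of macrophages, had a signal of 14297 in young WT, 3222 in old WT and 101 in old p16-/-, and its close copy Lyz2 had 2017 in young WT, 422 in old WT and 13.8 in old p16-/-, although one probe may read both copies. Ctss, a lysosomal protease, had 6500.0 in young WT, 1455 in old WT and 10.6 in old p16-/- and was at least 133-fold lower on old p16-/-.

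Adgre1, which encodes the macrophage antigen F4/80, had a signal of 1153 in young WT, 155 in old WT and 13.1 in old p16-/-. C1qc, a chain of complement C1q, had 1501 in young WT, 282 in old WT and 11.8 in old p16-/-, and Tyrobp, an adaptor of myeloid receptors, had 1747 in young WT, 336 in old WT and 12.9 in old p16-/-. On old p16-/- these 3 genes were not above background, while old WT lay between the other arrays. Csf1r, the receptor for macrophage colony-stimulating factor, was above background on every array, with 5992 in young WT, 2526 in old WT and 1519.6 in old p16-/-. Itgam and Cd14 were near the young level, at ratios of -0.37 and -0.48. In these bulk RNA samples, fewer macrophages and less of these RNAs per cell cannot be told apart. For old WT over young WT, the same 15 macrophage genes had a median of -2.10 and the 32 interferon genes a median of 1.01. Of the compared arrays, young WT alone brought 13 of the 15 and 12 of the 32 over the signal threshold. That choice favours a lower value on old WT as well. The part of macrophages in the interferon values was not tested.

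**Figure D2:**
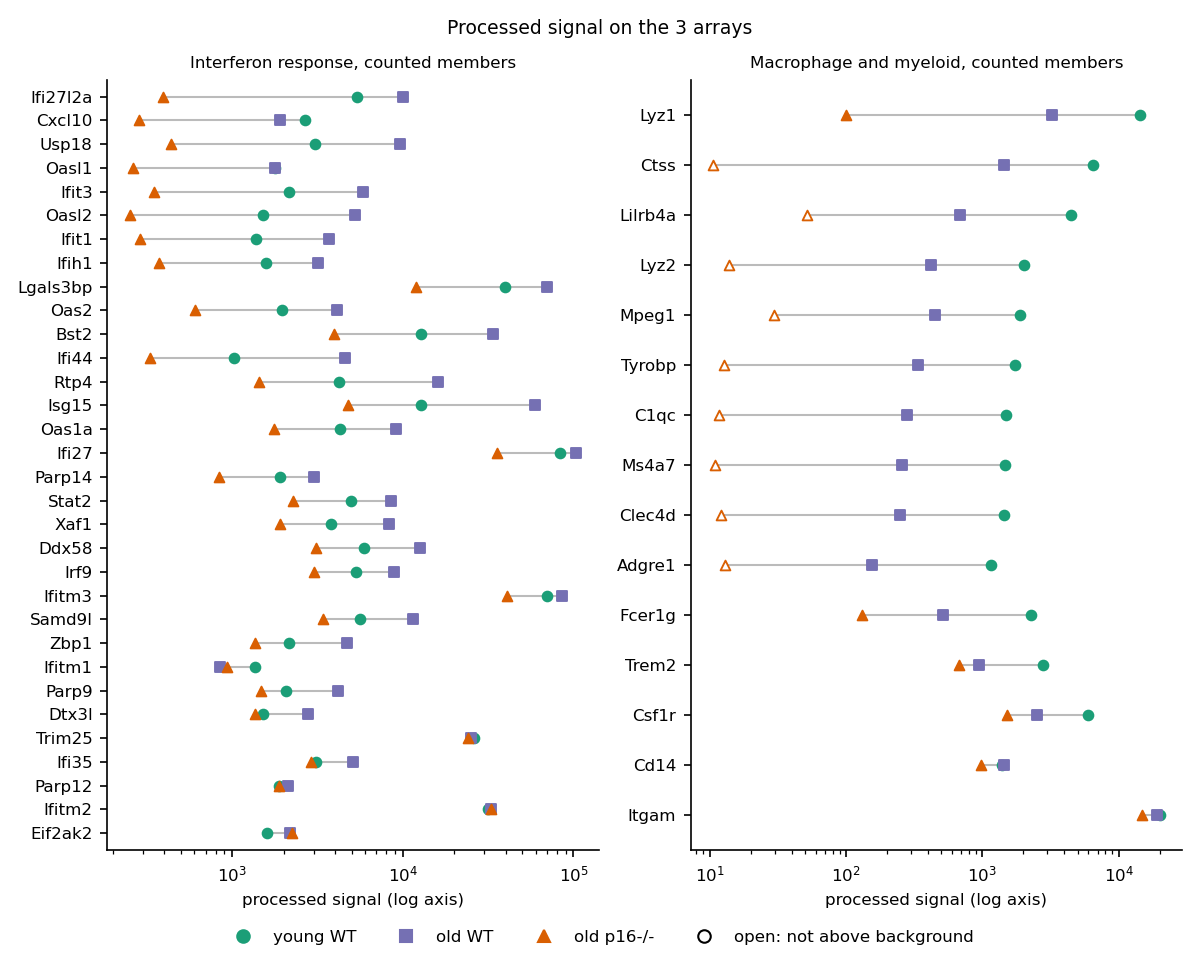
Processed signal (log axis) of each counted interferon response gene (32, left) and macrophage gene (15, right) on the 3 arrays, with circles for young WT, squares for old WT, triangles for old p16-/- and open symbols where the probe was not above background. Interferon genes mostly run from old p16-/- (lowest) over young WT to old WT, whereas macrophage genes mostly run from old p16-/- over old WT to young WT.

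Genes of fibroblast identity were split on old p16-/-. Of 30 on the array, 27 were counted, 4 were 2-fold higher and 4 were 2-fold lower (together 29.6%, beside 7.62% of all counted genes). Within 1.5-fold lay 14 (51.9%, beside 84.8%), and the median was -0.18. Thy1, a surface protein widely used to select fibroblasts and one lost early in reprogramming, had a signal of 69467 in young WT, 52045 in old WT and 3287 in old p16-/-. That is a log2 ratio of -4.35, 20.4-fold lower than young WT, while the WT arrays lay within 1.5-fold of each other. Pdpn (podoplanin), another surface glycoprotein, had 94401 in young WT, 88662 in old WT and 6874 in old p16-/-, a ratio of -3.73 and -3.13 by a second probe. Mfap5, a microfibril protein, had 49077 in young WT, 47493 in old WT and 13255 in old p16-/-, a ratio of -1.83. Twist2, a mesenchymal transcription factor, was the fourth, at -1.02.

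The higher members were also surface and matrix genes. Nt5e (CD73), which makes adenosine, had a signal of 1498 in young WT, 3810.2 in old WT and 9347 in old p16-/-, and its ratio was 2.70. Pdgfra, a receptor for platelet-derived growth factor, had 651 in young WT, 884 in old WT and 2682 in old p16-/-, a ratio of 2.10. Fap, a serine protease of activated fibroblasts, had 449.8 in young WT, 587 in old WT and 1668 in old p16-/-, a ratio of 1.95, and Fbln1, a matrix glycoprotein, had a ratio of 1.86. For these 4 the old p16-/- array was the highest and young WT the lowest. Pdgfra and Fap reached the signal threshold on old p16-/- and not on young WT, which all but fixes that they were higher. Col1a2, Vim and S100a4 were close to young, at 0.10, -0.05 and -0.24. Of 16 counted mesenchymal transition factors, 13 lay within 2-fold, among them Snai2 at -0.08 and Zeb1 at -0.29. The share 2-fold apart was 18.75%, beside 7.62% of all counted genes.

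Contractile and smooth muscle genes, which Srf and its Mrtf cofactors control together with TGF-beta, were lower as a group. Of 16 counted genes, 7 were 2-fold lower (43.75%, beside 4.2% of all counted genes) and none 2-fold higher, with a median of -0.80. A ratio below 0 was found for 14, so that 12.5% lay above 0, beside 55.1% of all counted genes. All 16 reached the signal threshold on both arrays. Acta2 (smooth muscle actin) had a signal of 148230.1 in young WT, 165017 in old WT and 42072 in old p16-/-. Myl9, a myosin light chain, had 104851 in young WT, 132705 in old WT and 34798 in old p16-/-, and Tagln (transgelin) had 128345 in young WT, 146254 in old WT and 43484 in old p16-/-. Old WT was the highest and old p16-/- the lowest in each, with ratios to young WT of -1.76, -1.54 and -1.51. Actg2, Cnn1, Tpm2 and Cald1 were the other 2-fold-lower genes, at -1.45, -1.31, -1.16 and -1.15. Mcam and Cspg4, surface proteins of pericytes, were above young WT, at 0.26 and 0.61. Acta1, the skeletal actin, lay with the lower genes at -2.28 (signals of 7932, 7105 and 1569).

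The CArG box, the element that Srf binds, is a rare match in promoters, in 1.63% of all windows and 4 of 16 windows (25.0%) of the counted contractile genes. Only 1 of 6 windows of the 2-fold-lower genes held a full match, that of Myl9 at chr2:156775214-156775463 (plus strand). It is printed because it joins the element to one of the furthest members, with the match in capitals.
Myl9: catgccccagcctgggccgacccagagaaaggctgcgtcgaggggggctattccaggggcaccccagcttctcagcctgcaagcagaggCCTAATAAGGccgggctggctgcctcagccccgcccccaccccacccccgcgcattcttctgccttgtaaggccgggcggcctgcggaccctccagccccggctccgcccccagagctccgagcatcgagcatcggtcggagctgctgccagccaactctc
The windows of Acta2, Cnn1, Tpm2 and Cald1 held no full match. Near matches were not searched, and the Acta2 window holds ccctatatgg and ccttgtttgg, each 1 letter off the element. The lack of a full match thus says nothing on near matches or on sites outside the windows.

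**Figure D3:**
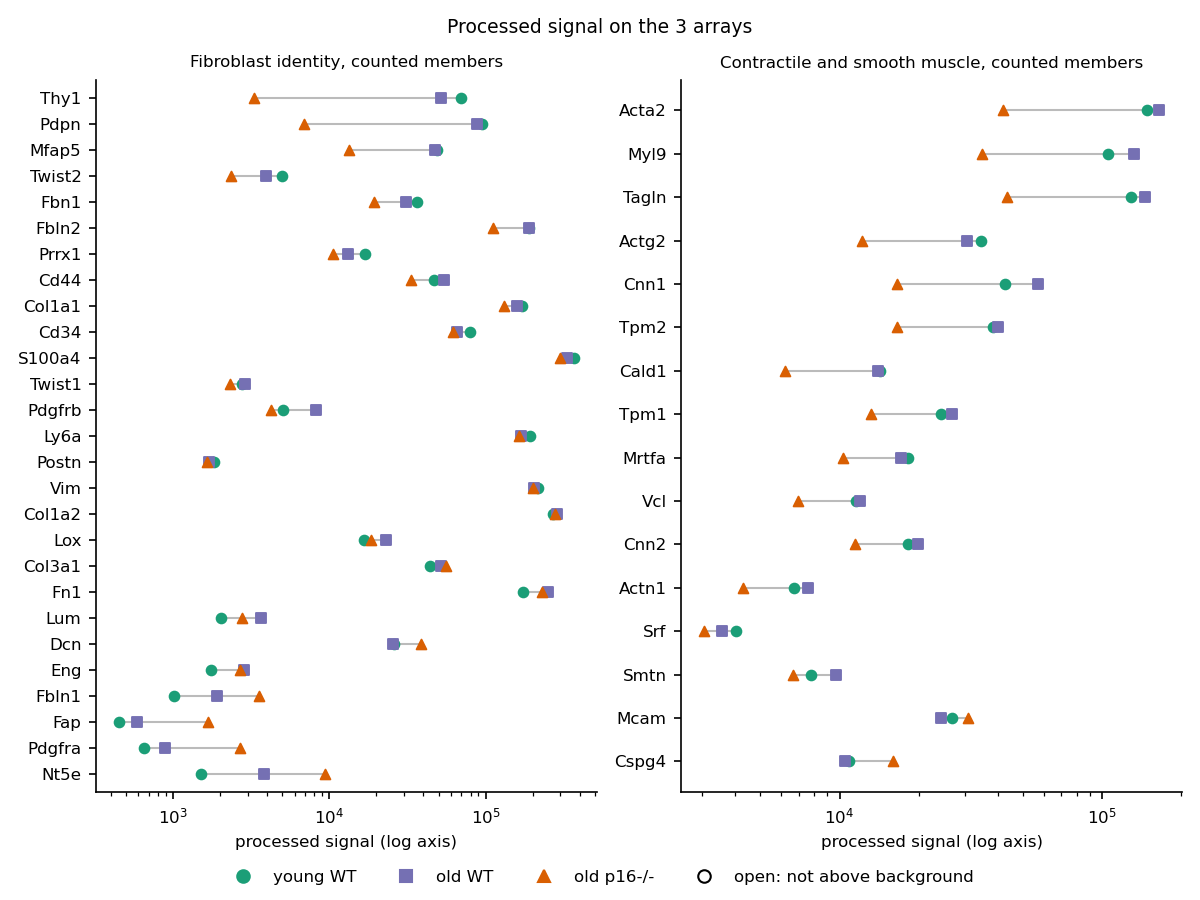
Processed signal (log axis) of each counted fibroblast identity gene (27, left) and contractile gene (16, right) on the 3 arrays, with circles for young WT, squares for old WT and triangles for old p16-/-. Young and old WT lie close together for most genes, and old p16-/- stands apart to the left for Thy1, Pdpn and most contractile genes and to the right for Nt5e, Pdgfra, Fap and Fbln1.

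TGF-beta and BMP genes had a median nearer to young WT than the contractile genes, at -0.23, but parted more often than genes in general. Of 28 counted genes, 1 was 2-fold higher and 4 were 2-fold lower (together 17.9%, beside 7.62% of all counted genes). Within 1.5-fold lay 17 (60.7%, beside 84.8%). Of the 25 that reached the signal threshold on both arrays, 3 were 2-fold lower and none 2-fold higher. Ankrd1, a target of Yap, had a signal of 3217 in young WT, 4016 in old WT and 636 in old p16-/-, a ratio of -2.28. The ligand Tgfb3 had a ratio of -1.44 and the BMP target Id1 had a ratio of -1.13. Bmp4, a ligand, was the higher one, with 669 in young WT, 2747 in old WT and 3636 in old p16-/-, a ratio of 2.50, and here both old arrays stood above young WT. Ccn2 and Tgfbr2 lay at -0.06 and 0.02.

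The Serpina3 cluster, which encodes secreted serine protease inhibitors, had 5 counted members of 9 on the array. All 5 reached the signal threshold on old p16-/- alone, so the choice of counted genes fixes that they were higher there, and only the sizes are described. Serpina3f had a signal of 102 in young WT, 165 in old WT and 40129.5 in old p16-/-, the highest ratio of all named genes above background on both arrays, at 8.68 or 409-fold. Serpina3n had 70.3 in young WT, 73.8 in old WT and 2080.3 in old p16-/-, a ratio of 4.94. Serpina3b and Serpina3h had ratios of 3.95 and 2.96, and Serpina3i was at least 41.8-fold higher. The WT arrays gave low signals for all 5. Copies of this cluster are nearly alike, so a probe can read more than one of them, and the 5 values are not independent. Their median was 4.94, and 3.92 with normexp background correction. That correction adds the same offset to every signal, so dim signals shift most on the log2 scale.

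Cartilage and bone genes included several with far higher signals on old p16-/-. Of 18 on the array, 9 were counted, 6 of them 2-fold higher and 1 2-fold lower (together 77.8%, beside 7.62% of all counted genes). Their median was 2.13, which was 1.14 with no signal threshold. Of the 9, 3 reached the threshold on old p16-/- alone and could only be higher, and of the other 6, 3 were 2-fold higher. Col2a1, the collagen of cartilage, had a signal of 2580.2 in young WT, 4376 in old WT and 42067 in old p16-/-, a ratio of 4.08. Col11a1, which coassembles with it, had a ratio of 2.13, Col10a1, of growth plate cartilage, had a ratio of 2.64, and Hapln1, which links hyaluronan to aggrecan, had a ratio of 2.97. Scrg1 was above background on old p16-/- alone, at least 29.4-fold higher (signals of 18.1, 41.1 and 1569). Spp1 (osteopontin) had a ratio of 1.14, while Mgp, an inhibitor of calcification, had 114144 in young WT, 180400.2 in old WT and 51934 in old p16-/-, a ratio of -1.08. Old WT stood above young WT in each of these genes, Mgp included, apart from Scrg1, which was not above background on either WT array. The collagens as a family lay on both sides, with 2 of 16 counted genes 2-fold higher, 1 2-fold lower and a median of -0.11. The share 2-fold apart was 18.75%, beside 7.62% of all counted genes. Col5a2 and Col7a1 lay farthest apart, at 1.37 and -1.63.

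Secretory genes linked to senescence, the proteases, cytokines and growth factor binders that senescent cells release, lay on both sides of young WT. Of 31 counted genes, 7 were 2-fold higher and 6 were 2-fold lower (together 41.9%, beside 7.62% of all counted genes). Within 1.5-fold lay 14 (45.2%, beside 84.8%), and the median was -0.15. Of the 28 that reached the signal threshold on both arrays, 6 were 2-fold higher and 5 2-fold lower. Mmp13, a collagenase, had a signal of 944 in young WT, 2724 in old WT and 21302 in old p16-/-, a ratio of 4.55. Mmp3, stromelysin, had 6022 in young WT, 6033 in old WT and 27858 in old p16-/-, a ratio of 2.26. The interleukin Il11 was lower, with 9117 in young WT, 10709 in old WT and 2859 in old p16-/-, a ratio of -1.62, and the chemokine Ccl8 had a ratio of -1.19. Timp1 and Timp2, inhibitors of these proteases, and the chemokine Ccl2 lay at 0.07, 0.21 and -0.26.

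Binders of insulin-like growth factors took part on both sides. Igfbp3 had a signal of 7988 in young WT, 11685 in old WT and 24819 in old p16-/- and Igfbp5 had 1252 in young WT, 11658 in old WT and 3852 in old p16-/-, with ratios to young WT of 1.69 and 1.68. For Igfbp5 the highest array was old WT, and old p16-/- lay between it and young WT. Igfbp4, Igfbp2 and Igfbp6 were lower than young, at -2.26, -2.15 and -1.07, and on each of them the WT arrays lay within 1.5-fold. Igf1, the ligand, had a ratio of 1.22 and its receptor Igf1r had a ratio of 0.44.

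**Figure D4:**
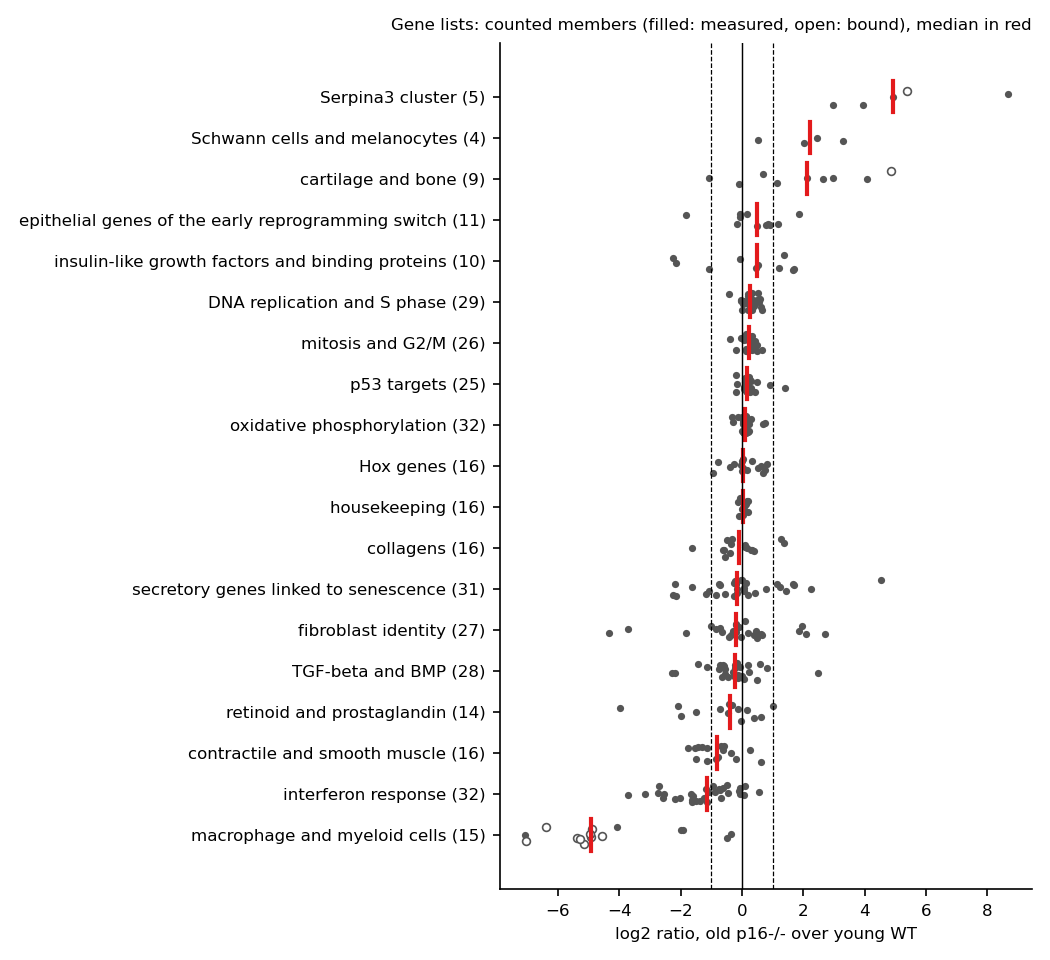
Log2 ratio of old p16-/- over young WT (x axis) for the counted members of 19 of the 44 gene lists, with the number of members in brackets, filled points for ratios measured on both arrays, open points for bounds and a red bar for the median. Dashed lines mark 2-fold; the members of replication, mitosis, oxidative phosphorylation, Hox and housekeeping lists all lie between them, and the macrophage, interferon and contractile lists have medians below 0, with 14 of 32 interferon and 9 of 16 contractile members still inside the 2-fold lines.

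Few genes of the pluripotency network were bright on day 8. Of 38 on the array, 12 were counted, with a median of 0.29. Of these, 3 were 2-fold higher and 2 2-fold lower (together 41.7%, beside 7.62% of all counted genes). The signal threshold was reached on old p16-/- alone by Tfcp2l1 and Sall1, which all but fixes that they were higher. On young WT alone it was reached by 1 member, which all but fixes that it was lower. Of the 9 that reached it on both arrays, 1 was 2-fold higher and 1 2-fold lower. Tfcp2l1, a factor of naive pluripotency, had a signal of 639.7 in young WT, 544 in old WT and 2469 in old p16-/-, a ratio of 2.00, and Sall1 had 245 in young WT, 398 in old WT and 1123 in old p16-/-, a ratio of 2.25. Tdh, threonine dehydrogenase of mouse stem cells, had a ratio of 1.07, while Fgf4 was lower, at -1.77. Epithelial genes of the early switch had 2 of 11 counted genes 2-fold higher and 1 lower (together 27.3%, beside 7.62% of all counted genes). Both higher genes, Krt18 and Krt8, reached the signal threshold on old p16-/- alone, which all but fixes that they were higher. Of the 9 that reached it on both arrays, none was 2-fold higher and 1 was 2-fold lower. Krt18 and Krt8, the keratins of simple epithelia, had signals of 566, 464 and 1990.3 (Krt18) and 824, 509.7 and 1777 (Krt8) and ratios of 1.87 and 1.16. Krt19 had signals of 22048, 11803 and 6053 and a ratio of -1.81. Old p16-/- was thus the highest array for Krt8 and Krt18 and the lowest for Krt19. Keratinocyte markers had a median of -0.10 over 8 counted genes.

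Of 15 marker genes of Schwann cells and melanocytes on the array, 4 were counted, and 3 of them were at least 2-fold higher on old p16-/-. The fourth, Mitf, a melanocyte transcription factor, had a ratio of 0.51. The signal threshold was reached on old p16-/- alone by 2 of the 4, which could only be higher. Of the 2 that reached it on both arrays, 1 was 2-fold higher. Ngfr, the low-affinity neurotrophin receptor, had a signal of 1027 in young WT, 1982 in old WT and 5356 in old p16-/-, and S100b, a calcium-binding protein, had 339.8 in young WT, 749.9 in old WT and 3241 in old p16-/-. Old p16-/- was the highest and young WT the lowest in both, with ratios of 2.44 and 3.31. The summed signal of the 15 genes was 7719, 12994 and 18327, and 6, 8 and 9 of them were above background. Sox10, a factor of both lineages, was under the signal threshold on every array, with signals of 106, 199 and 326. Mbp, a myelin protein that was also under it on both compared arrays, went the other way, with signals of 894, 1259.8 and 579 and a ratio of -0.57.

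The alpha globin genes Hba-a2 and Hba-a1 had signals of 201, 257 and 8594 (Hba-a2) and 24.8, 48.8 and 2241 (Hba-a1), so that old p16-/- alone was bright. Hba-a2 had a ratio of 5.47 and Hba-a1 was at least 42.0-fold higher, although the copies are nearly identical and their probes may read both. Other erythroid genes lay within 2-fold: Hbb-y, an embryonic beta-like globin, had a ratio of -0.98, Fech, the last enzyme of haem synthesis, had a ratio of -0.70, and Tfrc, the transferrin receptor, had a ratio of 0.24.

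The genes furthest apart beyond these groups were of mixed function. Cd200, a surface ligand that restrains myeloid cells, had a signal of 136 in young WT, 209 in old WT and 4165 in old p16-/-, a ratio of 4.99. Dio2, the deiodinase that activates thyroid hormone, had 185 in young WT, 401 in old WT and 5415 in old p16-/-, a ratio of 4.93. Enpp2 (autotaxin), which makes lysophosphatidic acid, had 529 in young WT, 2218 in old WT and 6353 in old p16-/-, a ratio of 3.64. Old p16-/- was the highest array for all 3. Stac, an adaptor protein of calcium channels, had a ratio of 4.35, and the kallikreins Klk1b26 and Klk1b5, close copies of each other, had ratios of 3.64 and 3.49. Among genes bright on old p16-/- alone, Iapp, a peptide hormone of the pancreas, was at least 118-fold higher, H60b, a ligand of natural killer cells, at least 79.6-fold, F13a1, the clotting factor XIII chain, at least 53.7-fold and Chil1, a chitinase-like protein, at least 44.5-fold.

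Of the lowest ratios, Zic1, a zinc finger factor, had a signal of 3754 in young WT, 3777 in old WT and 68.0 in old p16-/-, a ratio of -5.73, but a second probe gave -0.43. Aph1b, a subunit of gamma-secretase, had 1585 in young WT, 1665 in old WT and 83.7 in old p16-/-, a ratio of -4.19, and its second probe gave -0.42. For both genes the probes disagree, so the gene-level difference is uncertain. Trim12a, a relative of the restriction factor Trim5, had 5781 in young WT, 6198 in old WT and 12.5 in old p16-/-, at least 119-fold lower, and its second probe was also not above background on old p16-/-. Acyp2, an acylphosphatase, had 2270.4 in young WT, 2058 in old WT and 45.1 in old p16-/-, at least 46.6-fold lower. Tshz2 had 1726 in young WT, 439.7 in old WT and 69.6 in old p16-/-, a ratio of -4.58, and Pop4, a subunit of RNase P, had 25471 in young WT, 20440.2 in old WT and 1730.4 in old p16-/-, a ratio of -3.83. Among the 2-fold genes above background on both arrays, 145 had another probe that was so too. The median ratio of a gene's other probes lay in the same direction for 129 of these genes. For 86 (59.3%) that median was also at least 2-fold.

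**Figure D5:**
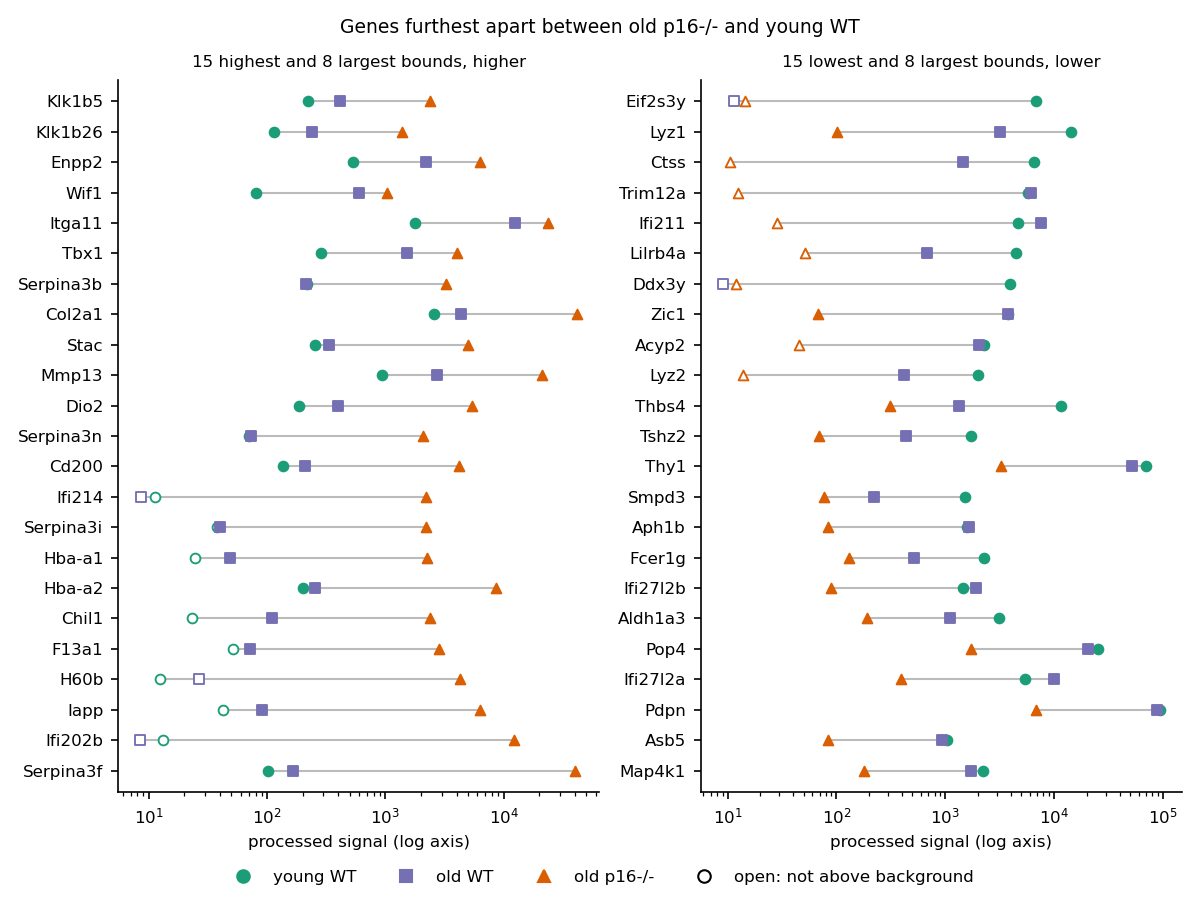
Processed signal (log axis) on the 3 arrays for the genes with the highest ratios and largest higher bounds (left) and the lowest ratios and largest lower bounds (right) of old p16-/- over young WT, with circles for young WT, squares for old WT, triangles for old p16-/- and open symbols where the probe was not above background. Genes were chosen by these ratios, so the gap between young WT and old p16-/- is given by the choice, and the WT symbols nearly coincide for Pdpn, Zic1, Acyp2, Trim12a, Serpina3n and Serpina3i, while old WT lies with old p16-/- for Eif2s3y and Ddx3y.

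Positional genes are ones whose expression fibroblasts keep from their place in the body. All 16 counted Hox genes lay within 2-fold, beside 92.4% of all counted genes, and 62.5% within 1.5-fold, beside 84.8%, with a median of 0.04. Among them was Hoxb13, of the tail end of the body, at -0.80 (signals of 23776, 31517 and 13187). Of 14 counted positional factors outside the Hox clusters, 3 were 2-fold higher and 1 lower (28.6%), beside 7.62% of all counted genes. The lower one was Zic1, given above, whose probes disagree. Tbx1 had signals of 286, 1511 and 4015 and a ratio of 3.87, Foxd1 had 1046, 2933 and 6562 and a ratio of 2.70, and Foxf1 had 533, 1549 and 1106 and a ratio of 1.11. In each of these 3, both old arrays stood above young WT. Tbx1 and Foxf1 reached the signal threshold on old p16-/- and not on young WT, which all but fixes that they were higher. Prrx2, a homeobox factor of mesenchyme, lay close to young WT, at -0.33.

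Wnt pathway genes were split, with 4 of 19 counted genes 2-fold higher and 3 lower (together 36.8%, beside 7.62% of all counted genes). Of the 17 that reached the signal threshold on both arrays, 3 were 2-fold higher and 2 2-fold lower. The secreted inhibitors Wif1 and Dkk3 had signals of 80.6, 594 and 1039.8 (Wif1) and 4416, 18478 and 15347 (Dkk3) and ratios of 3.74 and 1.85, and both old arrays stood above young WT. The inhibitors Dkk2 and Sfrp1 were lower, at -1.70 and -1.21, as was the ligand Wnt5a at -1.16. Ctnnb1, which encodes beta-catenin, lay at 0.18.

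Retinoid and prostaglandin genes had 4 of 14 counted members 2-fold lower and 1 higher (together 35.7%, beside 7.62% of all counted genes). Of the 13 that reached the signal threshold on both arrays, 3 were 2-fold lower and 1 2-fold higher. Aldh1a3, which makes retinoic acid, had a signal of 3109.7 in young WT, 1110.3 in old WT and 191 in old p16-/-, a ratio of -3.97. Crabp1, a retinoic acid carrier, had 6631 in young WT, 2415 in old WT and 1608 in old p16-/-, a ratio of -1.99. Old p16-/- was the lowest and young WT the highest in both. Crabp2, the related carrier, went the other way within 2-fold, at 0.61, and Cyp26b1, which breaks retinoic acid down, had a ratio of 1.02.

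Of the imprinted genes, 5 of 12 counted were 2-fold lower (41.7%, beside 4.2% of all counted genes) and 2 higher (16.7%, beside 3.42%). The signal threshold was reached on young WT alone by 4 of the 12, which all but fixes that they were lower. Of the 8 that reached it on both arrays, 1 was 2-fold lower and 2 were 2-fold higher. Dlk1, expressed from the paternal copy, had a signal of 1559.6 in young WT, 578 in old WT and 197.9 in old p16-/-, and Meg3, the maternal RNA of the same cluster, had 15114 in young WT, 21786 in old WT and 5897 in old p16-/-, with ratios of -2.92 and -1.30. Grb10, an inhibitor of growth factor receptors, had a ratio of -2.03, and Plagl1, a zinc finger factor, had 2711 in young WT, 3649 in old WT and 13048 in old p16-/-, a ratio of 2.32. The old p16-/- array was outside the range of the WT arrays for these 4 genes. Gnas and Nap1l4 lay at -0.07 and -0.03.

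Among integrins, Itga11, a collagen receptor, had a signal of 1779 in young WT, 12490.3 in old WT and 23634 in old p16-/-, a ratio of 3.79, so both old arrays were high. Itga4 had 1357 in young WT, 1339 in old WT and 61.5 in old p16-/-, at least 21.3-fold lower on old p16-/-, where it was not above background. The collagen-binding kinase Ddr2 had a ratio of -1.12 and Itgb1, the shared beta chain, had a ratio of -0.24. Of the 5 thrombospondins, Thbs4 had a signal of 11696 in young WT, 1346 in old WT and 311 in old p16-/-, a ratio of -5.18, whereas Thbs1 lay at -0.17. Among complement genes, Serping1, the C1 inhibitor, had 5779 in young WT, 7126 in old WT and 1104 in old p16-/-, a ratio of -2.33. Of 10 counted complement genes, 8 were within 2-fold and 20.0% were 2-fold apart, beside 7.62% of all counted genes.

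Metabolic lists lay on either side of the 7.62% of all counted genes that were 2-fold apart. All 32 genes of oxidative phosphorylation were counted, none was 2-fold apart, 30 lay within 1.5-fold (93.8%, beside 84.8%) and the median was 0.12. Atp5b, of the ATP synthase, had signals of 206778, 192701 and 199502, and Ndufb8, of complex I, had the highest ratio of the list at 0.75. Of 27 counted genes of glycolysis and the pentose phosphate pathway, 2 were 2-fold higher and none lower (7.41%), Ldhb (a lactate dehydrogenase subunit) at 1.51 and Eno2 (an enolase) at 1.497. Antioxidant genes had 3 of 35 counted members higher and 3 lower (17.1%), with Mgst2 at 2.12 and Gstm2 at -1.24, and a median of 0.03 that was -0.01 after quantile normalization. Genes of Polycomb, Trithorax and DNA methylation lay within 2-fold in all 22 counted members, with a median of 0.14, and immediate early and heat shock genes in all 16, with a median of -0.16. Of the 38 lists with 5 or more counted members, 9 held no gene that was 2-fold apart.

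The genes outside chromosomes X and Y furthest apart between the WT arrays show where old p16-/- lay for genes that parted these arrays. They were chosen by the old WT and young WT arrays, and the comparison with young WT shares the young array. Eif2s3y, Ddx3y and Xist, given above, parted the WT arrays further but lie on X or Y and were left out. Of the 10 genes outside X and Y lowest on old WT against young WT, 9 were lower still on old p16-/-. Among them were Thbs4 and 7 macrophage genes. Smpd3, a sphingomyelinase, had signals of 1514, 223 and 76.3. Syt10, a calcium sensor of vesicles, was the exception, with 11016 in young WT, 2184 in old WT and 23668 in old p16-/-, so that it was lower on old WT than on young WT (log2 ratio -2.27) and higher on old p16-/- (1.16).

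Of the 10 genes outside X and Y highest on old WT against young WT, 8 were also above young WT on old p16-/- and 2 were below it. Tbx1, Itga11, Hapln1 and Klra16 were higher on old p16-/- than on old WT. Igfbp5, Dio3, Klra7 and Klra4 lay between the WT arrays, with Dio3, the deiodinase that inactivates thyroid hormone, at 1129.9 in young WT, 5299 in old WT and 2271 in old p16-/-. Isg15 and Ifi44, both interferon response genes, were the 2 below young WT, Ifi44 with 1028 in young WT, 4606 in old WT and 329.8 in old p16-/-. The Klra genes encode near-identical receptors of natural killer cells, so their probes are uncertain, and Klra7 was too dim on the compared arrays to be counted (232, 1135 and 486).

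The 2-fold genes were spread over the genome, from 4.55% of counted genes on chromosome 18 to 11.05% on chromosome 9, with 7.23% on chromosome 4, which holds Cdkn2a. Several genes lay at the 2-fold limit: Selenov and Npcd were just inside on the higher side, at 1.002 and 1.009, and Fetub and Shf just outside, at 0.992 and 0.988. On the lower side Edn1 and Helz2 were just inside, at -1.001 and -1.002, and Gfpt2 and Igtp were just outside, at -0.9998 and -0.998.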

How the data were processed

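Total RNA of 3 samples was hybridised to 1-colour Agilent mouse arrays, 1 array a group. The deposited scanner files hold spot intensities from Feature Extraction 11.5.1.1, background-subtracted, spatially detrended and not normalized between arrays, per the file headers. The deposited value table holds the same linear intensity (39030 of 39030 singly spotted probes equal). Control spots (1377 an array) and outlier-marked spots (246, 246 and 267) were left out. The log2 processed signal was averaged over a probe's spots, less the 75th percentile of its array.

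Probe accessions were matched to RefSeq genes of GRCm38.p6 for names and promoters; the array design names mm9, so no probe coordinates are given. Of 39429 probes, 39279 had a usable spot, 27413 of these were named (20825 genes) and 11866 were not. The brightest probe stood for a gene. Where 1 of 2 arrays was not well above background, the ratio is a bound against the higher of the dim signal and the lowest signal above background (55.4, 35.7 and 46.9).

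Members, the signal threshold and the 44 lists (1014 of 1035 entries on the array) were chosen with earlier results of these data known. The naming rule took the 15 highest and 15 lowest ratios and the 8 largest bounds each way. It also took the 10 genes furthest apart by age each way, without chromosomes X and Y. From each list it took up to 8 members 2-fold apart and 6 within. Further members were named after their values were seen. With 1 array a group no test was run, and precision is limited by how few arrays there are. Ratios were checked on simulated arrays. Python 3.11.15, pandas 2.3.3, R 4.3.3 and limma 3.58.1 (normexp) were used. Alternatives covered scaling, background correction, thresholds, probes and outlier spots.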

Additional observations from a re-analysis of the deposited data

Results flagged for a closer look

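Probes with no gene name entered none of the gene counts. Of 11866 such probes, 2292 had a signal of 1000 or more and were above background on the old p16-/- or the young WT array. Among these, 97 were at least 2-fold higher on old p16-/- and 55 at least 2-fold lower, together 6.63%, beside 7.62% of the named genes. Their log2 ratios ran from 8.41 to -7.16. What these probes read was not tested.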

How the results depend on the processing

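No ratio or list median of at least 2-fold reversed under any of these settings. However, the median ratio of a gene's other probes lay in the same direction for 129 of 145 genes, not all. Of 570 list medians and 2386 single-gene ratios recomputed, 471 and 2248 shifted by less than 0.0664 on the log2 scale, the SD of a ratio between 2 single spots. The 303 higher and 373 lower genes became 906 and 994 with no signal threshold, because more genes were counted, and 95 and 114 at 4-fold. The share of genes within 1.5-fold was 82.7% at a signal of 500, 86.4% at 2000 and 76.4% with no threshold. The Serpina3 median of 4.94 was 3.92 with normexp, 4.45 with no threshold, on genes above background on both arrays and over the mean of probes, and 5.18 as a mean. The cartilage and bone median of 2.13 was 1.64 at 500 and above background on both arrays, 1.14 at 2000 and with no threshold, and 1.93 as a mean. The interferon median of -1.14 was -1.005 at 2000, -1.23 with no threshold, -1.28 over the mean of probes and -1.27 as a mean. The macrophage median of -4.92 was -3.78 with normexp, -4.42 at 500, -4.72 at 2000, -3.80 with no threshold, -1.95 above background on both arrays, -6.41 with dim signals at face value and -4.30 as a mean. The contractile median of -0.80 was -0.87 over the mean of probes, and the fibroblast median of -0.18 was -0.11 with normexp; the cause was not tested. Normexp on mean spot signals was not run, since the files used here hold median spot signals, which were used in its place, a choice made after seeing the files. No paired analysis was possible because each group has 1 array. Ratios of dim probes are limited by signal over background.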
